A study of Mus musculus with 4 samples.

Results

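Immediate early genes are the first genes that a stimulated neuron transcribes. Of this class, 10 genes are described here: *Fos*, *Fosb*, *Fosl2*, *Jun* and *Junb*, which encode subunits of the AP-1 transcription factor, *Egr1*, *Nr4a1* and *Npas4*, which encode other transcription factors, *Arc*, which encodes a synaptic protein, and *Ier2*, which encodes a nuclear protein. They were matched by symbol to the Entrez identifiers of the deposited tables, out of 17667 genes listed in at least 1 library. All 10 genes were listed in all 4 libraries and all 10 passed the filter on low counts, so no gene was lost.

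When a sympathetic neuron fires, calcium entry and receptor signalling activate kinases that act on transcription factors already present in the cell, mainly CREB and SRF with its partners, and these switch on immediate early genes without new protein synthesis. The transcripts are short-lived, and the proteins they encode go on to regulate later genes. In sympathetic ganglia (SG), cold exposure raises the firing of neurons that supply adipose tissue, and cFOS staining is widely used to mark recently active neurons. The same genes also respond to growth factors, tissue handling and heat shock, and they are found in glia, vessels and macrophages as well as in neurons.

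Transcripts of thoracic T1-T4 ganglia were sequenced from C57BL/6 mice aged 12 weeks, all kept for 1 day at 5 °C, so no library without cold exposure was measured and induction by cold itself was not tested. The 4 libraries were WT_1 and WT_2 (wild type), TRKC+/- (1 library, from mice haploinsufficient in all cells for TRKC, the receptor of neurotrophin NT-3, encoded by *Ntrk3*) and AdNTF3-Tg (1 library, from mice that overexpress NT-3 in adipocytes under a fragment of the adiponectin promoter, called AdNT3-Tg in the study). Each library was a pool of ganglia from 6 mice, so animals cannot be compared within a library. The labels say that each mutant line had its own WT control but not which of the WT libraries it was, so each mutant library was compared with both, and 1 of the 2 ratios given for each gene is the one within its own cohort. The names of the deposited tables mention cohorts, but groups were taken from the sample labels and those names were not used. A bulk library cannot tell fewer cells of a type from less RNA per cell.

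The libraries held between 8665955 and 8894985 reads on genes. *Ntrk3*, the gene targeted in the TRKC+/- line, was at 2.45 and 2.52 FPKM in WT_1 and WT_2 and at 2.72 FPKM in TRKC+/-, with 78, 83 and 91 reads, so it was not lower there and the name below is that of the label (edgeR log2 difference 0.15, SE 0.24, adjusted p = 0.9993). The study itself reports that expression of this gene in SG of the TRKC+/- line was reduced relative to WT littermates. *Ntrk3* in AdNTF3-Tg was at 2.32 FPKM, and *Ntf3*, which encodes NT-3, was listed only in the library labelled TRKC+/-, with 2 reads. The tissue label fitted its defining markers: all 13 sympathetic neuron markers were listed in all 4 libraries, with *Th* between 2576 and 2753 FPKM and *Dbh* between 2100 and 2170 FPKM. Markers of other tissues were present at different levels in the 4 libraries, above all those of skeletal muscle, and their sums are given beside the results they move with.

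Promoter sequences are shown because a stretch of letters known from CREB sites was the most frequent match among these genes. RefSeq windows on GRCm38.p6 were found for 7 of the 10 genes (*Fos*, *Fosb*, *Fosl2*, *Jun*, *Junb*, *Nr4a1* and *Npas4*). The 250 bases before the start site are printed 5′ to 3′ on the strand of the gene, for the 3 genes with at least 2 copies of the core of the cAMP response element (CRE), which is TGACG on either strand. Capitals mark that core, which reads CGTCA where it lies on the opposite strand. The windows are chr12:85473640-85473889 on the plus strand for *Fos*, chr15:101266596-101266845 on the plus strand for *Nr4a1*, which lies inside the *Nr4a1* locus before one of its start sites, and chr19:4989972-4990221 on the minus strand for *Npas4*, likewise inside its locus.
Fos: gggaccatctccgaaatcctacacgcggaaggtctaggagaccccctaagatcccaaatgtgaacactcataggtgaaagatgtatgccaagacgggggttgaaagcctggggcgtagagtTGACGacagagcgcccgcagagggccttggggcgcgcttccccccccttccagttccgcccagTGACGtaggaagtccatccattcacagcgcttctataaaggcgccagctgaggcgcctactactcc
Nr4a1: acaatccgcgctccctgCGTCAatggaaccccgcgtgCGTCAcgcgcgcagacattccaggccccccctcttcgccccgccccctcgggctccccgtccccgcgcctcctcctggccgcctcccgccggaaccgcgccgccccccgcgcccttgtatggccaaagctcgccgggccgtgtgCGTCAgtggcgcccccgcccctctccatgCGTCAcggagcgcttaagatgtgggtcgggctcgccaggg
Npas4: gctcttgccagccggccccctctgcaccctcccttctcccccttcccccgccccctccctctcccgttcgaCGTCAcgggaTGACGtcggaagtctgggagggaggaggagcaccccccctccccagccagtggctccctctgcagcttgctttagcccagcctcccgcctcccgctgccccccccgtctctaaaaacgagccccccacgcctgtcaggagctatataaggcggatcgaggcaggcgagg

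The CRE core was found in 5 of 7 windows, against 19.8% of the 27025 genes with a window. *Nr4a1* held 4 copies, *Fos* and *Npas4* held 2 each, and *Fosb* and *Junb* held 1 each, while 4.46% of all genes with a window held at least 2. In *Npas4* the 2 copies lie close together, at 179 to 175 and at 169 to 165 bases before the start, on opposite strands. The 9-base EGR site GCGNGGGCG was found in *Fosb*, *Fosl2* and *Nr4a1*, 3 of 7 windows, against 5.33% of all. Both matches were also frequent before the other rapid response genes listed for comparison, with the CRE core in 21 of 35 windows (60%) and the EGR site in 10 of 35 (28.6%). The full CRE TGACGTCA, of which TGACG is part, the AP-1 site TGANTCA and the CArG box of SRF (CC, then 6 letters that are each A or T, then GG) were in 0 of 7 windows, against 1.77%, 7.82% and 1.62% of all. Of the 35 windows of other rapid response genes, 5 held the full CRE (14.3%), 2 the AP-1 site (5.71%) and 3 the CArG box (8.57%). All motifs were searched on both strands. A match is a description of letters and not a bound site, and a missing match says only that the letters are not in these 250 bases. The plot of motif positions shows that the CRE cores of *Fos*, *Fosb* and *Nr4a1* include at least 1 within 70 bases of the start.

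**Figure D1:**
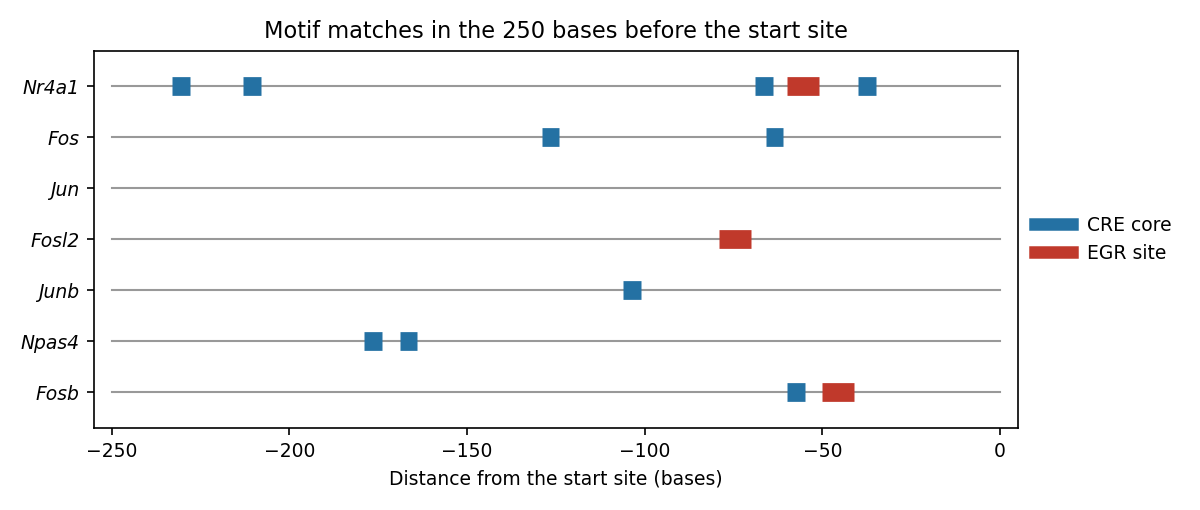
Positions of CRE cores (blue) and EGR sites (red) in the 250 bases before the start site for the 7 genes with a RefSeq window. The x axis is the distance from the start site in bases and each grey line is 1 gene. *Nr4a1* holds 4 CRE cores, *Fos* and *Npas4* hold 2 each, and *Jun* holds neither motif.

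The genes fell into an order of levels that was kept in all 4 libraries, apart from *Fosl2* and *Junb*, of which *Fosl2* was higher in WT_1 and AdNTF3-Tg and *Junb* in WT_2 and TRKC+/-. FPKM values, which are scaled to gene length, allow this order to be read. *Nr4a1* was highest with a mean of 39.9 FPKM (range 35.8 to 46.6), followed by *Fos* at 24.4 (18.1 to 28.3), *Jun* at 17.6 (16.7 to 19.1), *Fosl2* at 12.8 (10.7 to 14.9), *Junb* at 12.1 (10.2 to 15.3) and *Ier2* at 8.91 FPKM (8.63 to 9.73). *Egr1* at 3.79 FPKM, *Npas4* at 2.67, *Arc* at 1.82 and *Fosb* at 1.20 FPKM were the low ones. The ranges of *Fos* and *Jun*, of *Fosl2* and *Junb*, of *Npas4* and *Arc* and of *Arc* and *Fosb* overlapped across the libraries. Within each library *Fos* was above *Jun*, *Npas4* above *Arc* and *Arc* above *Fosb*, in places by little. In WT_1 *Fos* and *Jun* were at 18.08 and 17.94 FPKM and *Npas4* and *Arc* at 2.20 and 2.18, and in WT_2 *Arc* and *Fosb* were at 1.44 and 1.40. Among the 15275 genes listed in all 4 libraries, *Nr4a1* ranked 2181, *Fos* 3455 and *Fosb* 12437 by mean level.

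**Figure D2:**
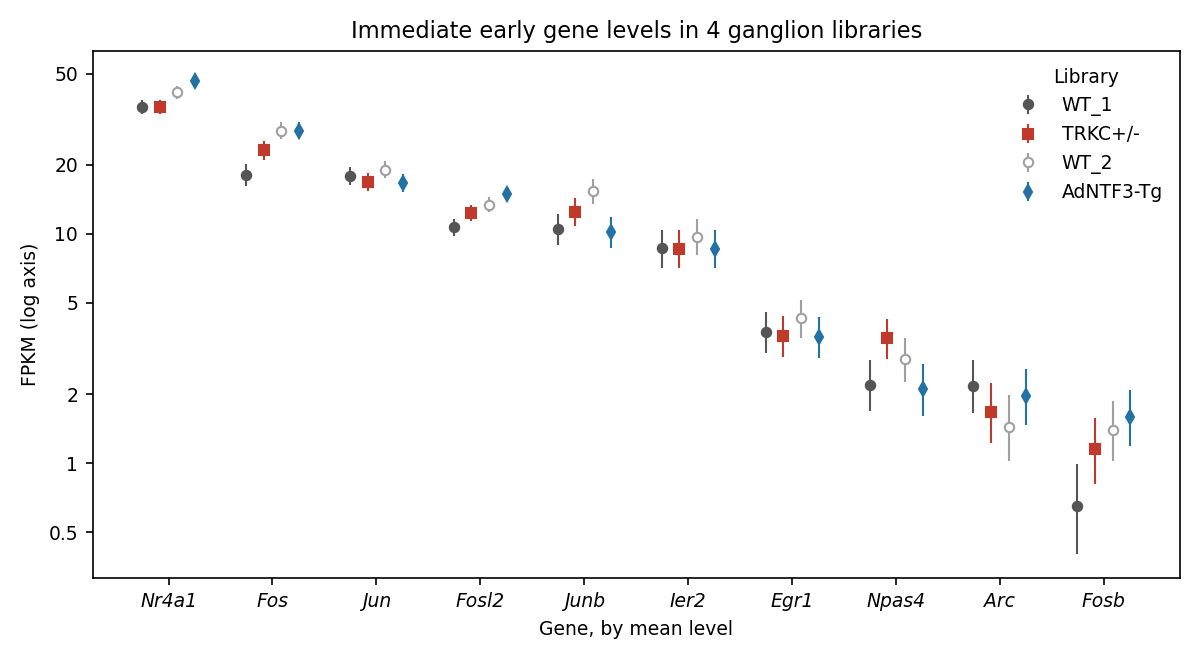
FPKM (log axis) of the 10 immediate early genes in each library, ordered by mean level. Points are single libraries and bars are 95% Poisson intervals of the reads, scaled to FPKM, which cover counting error only. *Fos* and *Fosb* are lowest in WT_1, *Npas4* is highest in TRKC+/- and *Jun*, *Ier2* and *Egr1* are nearly level.

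Among the AP-1 subunits, *Fos* was measured at 18.1 FPKM in WT_1, 28.2 in WT_2, 23.2 in TRKC+/- and 28.3 in AdNTF3-Tg, from 323, 510, 423 and 508 reads. WT_1 was the low library, and the other three lay above it. Between the WT libraries *Fos* differed by 0.64 on the log2 scale (95% counting interval 0.43 to 0.83), with WT_2 higher. TRKC+/- was 0.36 above WT_1 (0.14 to 0.56) and -0.28 relative to WT_2 (-0.47 to -0.09), so it lay between the controls. The sign for TRKC+/- therefore depended on which WT library was used. AdNTF3-Tg was 0.64 above WT_1 (0.43 to 0.84) and 0.00 relative to WT_2 (-0.18 to 0.18). Log2 ratios here are of FPKM + 0.1, and each interval is an exact Clopper-Pearson interval from the reads of 2 libraries.

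*Fosb*, a close relative of *Fos* whose splice form accumulates in repeatedly stimulated neurons, was at 0.65 FPKM in WT_1, 1.40 in WT_2, 1.15 in TRKC+/- and 1.59 in AdNTF3-Tg, from 21, 46, 38 and 52 reads. It followed the same order as *Fos*, with WT_1 apart from the rest. The difference between the WT libraries was 1.00 on the log2 scale (0.33 to 1.92), the largest among the 10 genes. AdNTF3-Tg was 1.17 above WT_1 (0.53 to 2.09) but 0.17 relative to WT_2 (-0.42 to 0.79).

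*Fosl2*, the Fos-related antigen FRA-2, was at 10.7 FPKM in WT_1, 13.4 in WT_2, 12.3 in TRKC+/- and 14.9 in AdNTF3-Tg. WT_1 was again lowest and AdNTF3-Tg highest. AdNTF3-Tg exceeded WT_1 by 0.48 (0.31 to 0.64) and WT_2 by 0.15 (-0.0008 to 0.30) on the log2 scale, while TRKC+/- lay between the WT libraries. By FPKM, *Fos* made up 55.8% to 61.8% of the 4 members of the FOS family in each library, *Fosl2* 29.4% to 33.0%, *Fosl1* 5.73% to 9.23% and *Fosb* 2.01% to 3.30%.

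*Jun*, the main dimer partner of FOS proteins, was at 17.9 FPKM in WT_1, 19.1 in WT_2, 16.8 in TRKC+/- and 16.7 in AdNTF3-Tg. The 4 values lay within a ratio of 1.14, and both mutants were just below both WT libraries. *Junb*, a JUN protein that often restrains *Jun*, was at 10.5 FPKM in WT_1, 15.3 in WT_2, 12.5 in TRKC+/- and 10.2 in AdNTF3-Tg. WT_2 stood above the others here, by 0.54 over WT_1 (0.24 to 0.83) on the log2 scale. AdNTF3-Tg was -0.59 relative to WT_2 (-0.89 to -0.30) and -0.04 relative to WT_1 (-0.38 to 0.27). In the JUN family *Jund*, which is made at rest, held 58.5% to 67.6% of FPKM, *Jun* 18.6% to 23.3% and *Junb* 12.6% to 18.5%.

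Of the other transcription factors, *Nr4a1*, the orphan nuclear receptor NUR77, was at 35.8 FPKM in WT_1, 41.4 in WT_2, 35.9 in TRKC+/- and 46.6 in AdNTF3-Tg, from 773, 905, 792 and 1012 reads. AdNTF3-Tg was above both WT libraries, by 0.38 (0.23 to 0.50) over WT_1 and 0.17 (0.04 to 0.30) over WT_2. It was the only one of the 10 genes whose intervals excluded 0 in the same direction against both WT libraries in either mutant, and both differences were under the study's cutoff of 0.5. The share of all genes that meet this condition was not counted. Singly, the AdNTF3-Tg intervals excluded 0 for 29.6% (WT_1) and 23.2% (WT_2) of genes that averaged 1 FPKM or more. Other rapid response genes met the condition too, for example *Jund* in both mutants and *Per1* in AdNTF3-Tg. For *Nr4a1*, TRKC+/- was at 0.00 relative to WT_1 (-0.15 to 0.14) and at -0.20 relative to WT_2 (-0.34 to -0.06). *Nr4a1* held 78.0% to 79.3% of the FPKM of the 3 NR4A receptors in each library, and the rest of the family was also highest in AdNTF3-Tg, *Nr4a3* at 9.75 FPKM against 6.97 and 8.33 in WT, and *Nr4a2* at 3.39 against 2.92 and 2.47.

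*Egr1*, a zinc finger factor induced by growth factors and synaptic activity, was at 3.73 FPKM in WT_1, 4.28 in WT_2, 3.58 in TRKC+/- and 3.55 in AdNTF3-Tg, from 94 to 114 reads. Both mutants were below both WT libraries, by amounts whose intervals all included 0, the widest being -0.26 (-0.68 to 0.14) for AdNTF3-Tg against WT_2. *Egr1* held 67.7% to 78.1% of the FPKM of the EGR family, in which *Egr2*, *Egr3* and *Egr4* were each at or below 1.01 FPKM and 20 reads.

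*Npas4*, a factor induced in neurons by calcium entry and little by other signals, was at 2.20 FPKM in WT_1, 2.84 in WT_2, 3.51 in TRKC+/- and 2.11 in AdNTF3-Tg, from 62, 81, 101 and 60 reads. It was the only one of the 10 genes above both WT libraries in TRKC+/-, and it was below both in AdNTF3-Tg. TRKC+/- exceeded WT_1 by 0.65 (0.20 to 1.15) and WT_2 by 0.30 (-0.13 to 0.75) on the log2 scale. AdNTF3-Tg was -0.06 relative to WT_1 (-0.61 to 0.47) and -0.41 relative to WT_2 (-0.93 to 0.07). Between the mutant libraries the ratio of AdNTF3-Tg to TRKC+/- was -0.71 (-1.22 to -0.26), a comparison chosen after the values were seen. That interval excluded 0 for 25.4% of all genes that averaged 1 FPKM or more and for 4 of the 10 (*Fos*, *Nr4a1*, *Fosl2* and *Npas4*), and edgeR gave *Npas4* a log2 difference of -0.73 (SE 0.32, adjusted p = 0.925).

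*Arc*, which encodes a synaptic protein that regulates receptor traffic and is a classic marker of neuronal activity in the brain, was at 2.18 FPKM in WT_1, 1.44 in WT_2, 1.68 in TRKC+/- and 1.97 in AdNTF3-Tg, from 57, 38, 45 and 52 reads. It ran opposite to *Fos* between the WT libraries, at -0.57 for WT_2 against WT_1 (-1.25 to 0.002), and both mutants lay between them. *Ier2* was at 8.65 FPKM in WT_1, 9.73 in WT_2, 8.64 in TRKC+/- and 8.63 in AdNTF3-Tg, the narrowest spread among the 10 genes, with a ratio of 1.13 between the highest and lowest library.

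On GRCm38.p6 the annotation places *Fosb* at chr7:19302696-19310118, *Fosl2* at chr5:32136472-32157840, *Jun* at chr4:95049036-95052222, *Junb* at chr8:84976909-84978748, *Ier2* at chr8:84661331-84662852 and *Arc* at chr15:74669081-74672570. These are whole gene spans, since the tables give 1 value per gene.

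The clearest split ran between the WT libraries, with most of the 10 genes higher in WT_2. Of the 10 genes, 3 (*Fos*, *Fosb* and *Junb*) were higher in WT_2 by at least 0.5 on the log2 scale, against 5.67% of all genes listed in all libraries and 3.02% of those that averaged 1 FPKM or more. 1 gene, *Arc*, was higher in WT_1 by that amount, against 7.71% and 4.24%. In all, 9 of 10 were higher in WT_2, against 47.5% of all genes, and the median difference was 0.27 against -0.01. The counting interval excluded 0 for 5 of 10 (*Fos*, *Fosb*, *Fosl2*, *Junb* and *Nr4a1*), against 23.1% of genes that averaged 1 FPKM or more. Since the WT libraries are the controls of different lines, this difference between cohorts cannot be told apart from a difference between pools of mice.

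Skeletal muscle markers moved with the same split. Their summed FPKM was 138 in WT_1, 25.0 in WT_2, 79.8 in TRKC+/- and 61.2 in AdNTF3-Tg, and all 11 of the 12 markers that were listed in every library were highest in WT_1 and lowest in WT_2, with *Acta1* from 21.1 to 1.12 FPKM. *Myh1* was not listed in WT_2. Blood markers summed to 172 in WT_1, 65.2 in WT_2, 146 in TRKC+/- and 88.0 in AdNTF3-Tg, and satellite glia markers to 690, 525, 641 and 631 in the same order. Sympathetic neuron markers stayed between 11055 and 11737 in sum. The part of muscle, blood or glial RNA in the difference was not tested.

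No gene of the 10 was called in either mutant. edgeR's quasi-likelihood test with Benjamini-Hochberg adjustment over 14156 genes, in which the spread came from the 2 WT libraries alone (1 residual degree of freedom) and was moderated across genes, called 0 of 10 in TRKC+/- (0.0141% of all genes tested) and 0 of 10 in AdNTF3-Tg (0% of all genes tested). At an unadjusted p under 0.05 the counts were 0 of 10 in TRKC+/- (2.11% of all genes) and 1 of 10 in AdNTF3-Tg (6.12%), which was *Nr4a1* (log2 difference 0.27, SE 0.12, adjusted p = 0.799). DESeq2's Wald test called 0 of 10 in TRKC+/- (0.0114% of 17619 genes) and 0 of 10 in AdNTF3-Tg (0%), with 0 at an unadjusted p under 0.05 in either, but few genes of any kind reached that level (0.119% and 0.363%). *Npas4* had the largest log2 difference in TRKC+/- at 0.47 (SE 0.26, adjusted p = 0.9993) and *Fosb* in AdNTF3-Tg at 0.63 (SE 0.44, adjusted p = 0.812) by edgeR. *Fos* was at -0.001 (SE 0.23, adjusted p = 0.9993) in TRKC+/- and 0.29 (SE 0.22, adjusted p = 0.827) in AdNTF3-Tg. On simulated counts for the AdNTF3-Tg comparison over 14049 genes, the same test recovered 98% of 100 genes changed by 1 on the log2 scale. It recovered 100% of 100 changed by 2 and also called 10 unchanged genes, and TRKC+/- was not simulated. All genes were simulated with the same common dispersion and no difference between the WT libraries, and genes with few reads were not changed. The recovery therefore does not give the power of the test for the 10 genes in the real libraries. The p-values from the real libraries rest on 2 control pools and 1 mutant pool, so they measure the spread between pools and not between animals. Because the control pools belong to different lines, that spread also holds any difference between cohorts.

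By the study's cutoff of 0.5 on the log2 scale, 0 of 10 genes lay beyond both WT libraries in the same direction in TRKC+/-, against 4.27% of all genes and 1.64% of those that averaged 1 FPKM or more. In AdNTF3-Tg the count was also 0 of 10, against 5.7% and 2.6%. In TRKC+/- 6 of 10 lay between the WT libraries, 1 above (*Npas4*) and 3 below (*Jun*, *Egr1* and *Ier2*), against 37.4%, 31.9% and 30.8% of all genes. In AdNTF3-Tg 4 lay above both (*Fos*, *Fosb*, *Fosl2* and *Nr4a1*), 5 below (*Jun*, *Junb*, *Egr1*, *Ier2* and *Npas4*) and 1 between (*Arc*), against 33.7%, 34.0% and 32.4%. The median over the 10 genes was -0.05 in TRKC+/- and 0.03 in AdNTF3-Tg relative to the mean of the WT libraries, beside 0.005 and 0.002 over all genes. Against WT_2 alone the TRKC+/- median was -0.19 and against WT_1 alone 0.10, and for AdNTF3-Tg they were -0.08 and -0.02. The sign of the TRKC+/- median thus turned with the control, and the AdNTF3-Tg median was below 0 against either WT library alone and above 0 against their mean.

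The counting intervals against single WT libraries show the same dependence. In TRKC+/- they excluded 0 for 4 of 10 genes against WT_1 (16.1% of genes that averaged 1 FPKM or more) and for 3 of 10 against WT_2 (22.5%). In AdNTF3-Tg they excluded 0 for 4 of 10 against WT_1 (29.6%) and 3 of 10 against WT_2 (23.2%). Against WT_1 all 4 were higher in either mutant, namely *Fos*, *Fosb* and *Fosl2* in both, with *Npas4* in TRKC+/- and *Nr4a1* in AdNTF3-Tg. Against WT_2, *Fos*, *Junb* and *Nr4a1* were lower in TRKC+/-, while in AdNTF3-Tg *Jun* and *Junb* were lower and *Nr4a1* higher.

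**Figure D3:**
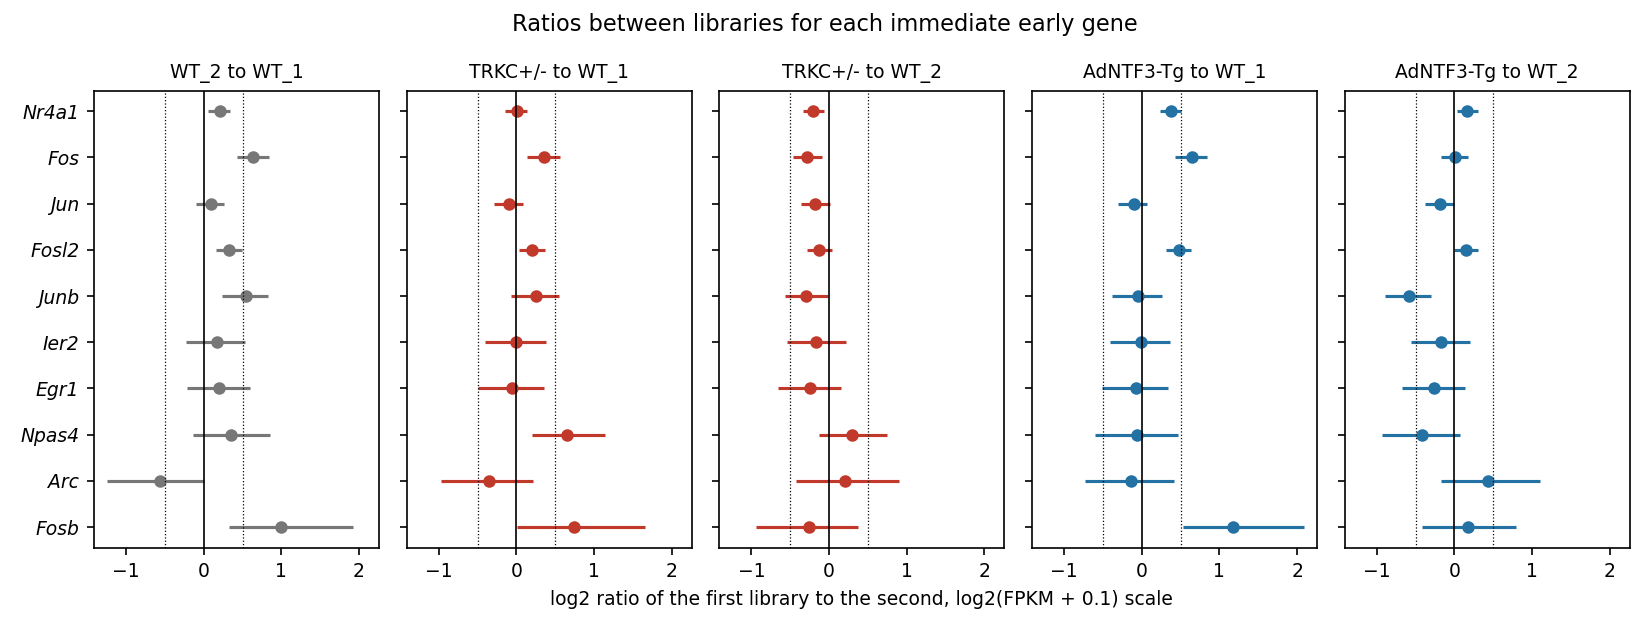
Log2 ratios of FPKM + 0.1 between pairs of libraries for each of the 10 genes, with exact 95% counting intervals as lines; panel titles give the first and second library, the solid line is 0 and dotted lines mark the cutoff of 0.5 in size. No gene lies past 0.5 in the same direction in both panels of TRKC+/- or in both panels of AdNTF3-Tg.

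Beside all genes, 9 of the 10 lie to the right of 0 along the difference between the WT libraries, and the 10 lie on both sides of 0 along the difference of each mutant, as the plot of mutant against WT differences shows. *Fosb* is the farthest right of the 10 at 1.00, and *Npas4* sits at 0.47 for TRKC+/- and -0.23 for AdNTF3-Tg on the vertical axis.

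**Figure D4:**
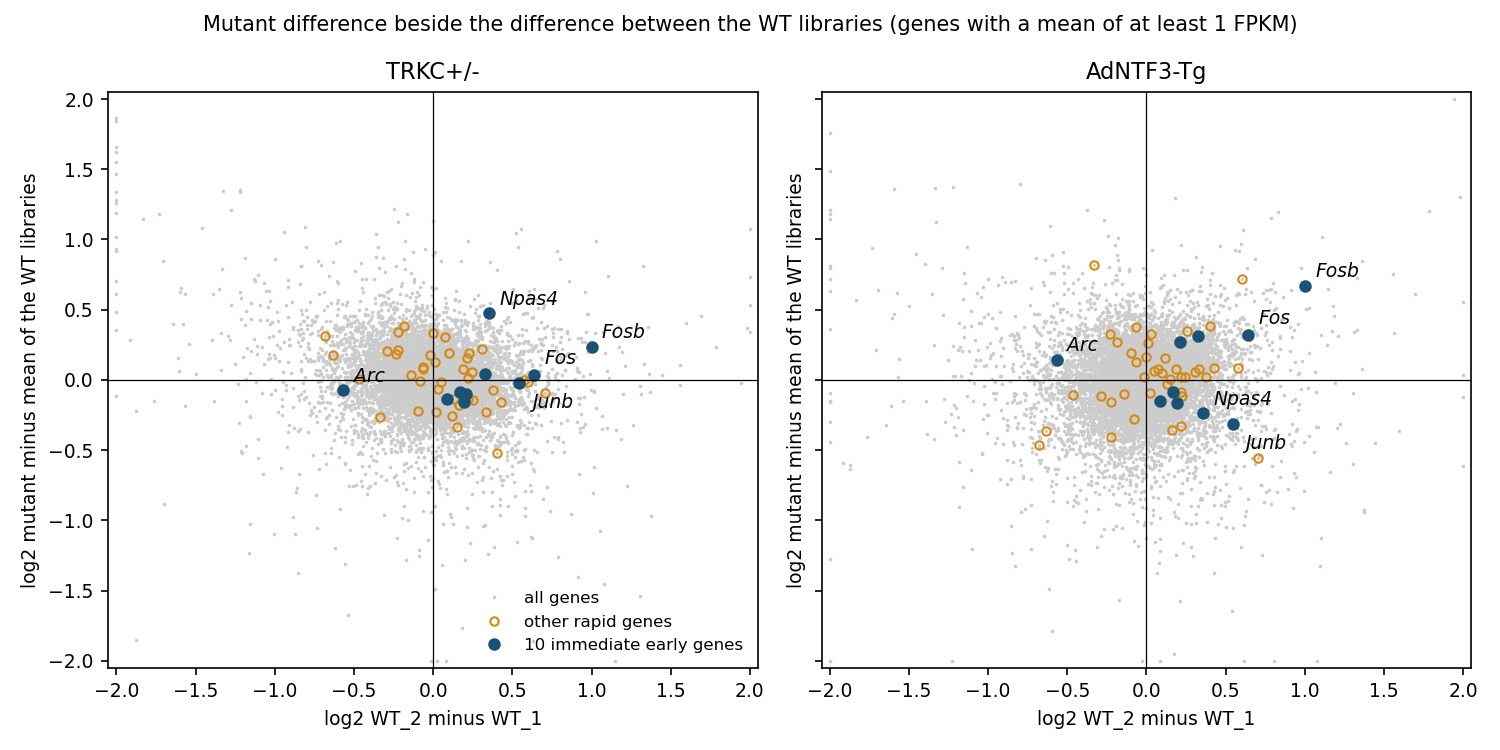
Each point is a gene that averaged 1 FPKM or more, with the log2 difference between WT_2 and WT_1 on the x axis and the log2 difference of the mutant library from the mean of the WT libraries on the y axis, in log2(FPKM + 0.1); values past the axis ends are drawn at the ends. The 10 immediate early genes (blue) lie within 0.7 of 0 vertically in both panels, and other rapid response genes (orange rings) lie around them.

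A wider set of rapid response genes gave no call either. Of 45 such genes, 44 were listed in all 4 libraries and 43 were tested. edgeR called 0 of 43 in TRKC+/- and 0 of 43 in AdNTF3-Tg, with 1 and 3 at an unadjusted p under 0.05, and DESeq2 also called 0. The 8 with the highest mean levels were *Rhob* (63.3 FPKM), *Jund* (53.1), *Plk2* (47.9), *Ier3* (24.6), *Dusp1* (23.7), *Crem* (23.6), *Coq10b* (21.8) and *Plk3* (19.1 FPKM). *Dusp1*, a phosphatase that switches off MAP kinases, was at 23.2 and 22.2 FPKM in the WT libraries, 24.3 in TRKC+/- and 24.9 in AdNTF3-Tg. *Jund* was at 48.5 FPKM in both WT libraries, 61.2 in TRKC+/- and 54.2 in AdNTF3-Tg (edgeR log2 difference 0.33 in TRKC+/-, adjusted p = 0.9993). *Amigo3*, a neuronal adhesion protein, was the 1 gene of the list that averaged 1 FPKM or more that lay beyond both WT libraries by 0.5, at 3.16 FPKM in AdNTF3-Tg against 1.98 and 1.55 in WT (log2 ratios 0.65 and 0.98, edgeR adjusted p = 0.799). *Per1*, a clock gene that also responds to activity, was at 21.9 FPKM in AdNTF3-Tg against 17.2 and 16.5 in WT (adjusted p = 0.799). *Coq10b*, a coenzyme Q chaperone, was lower there, at 18.6 FPKM against 22.5 and 25.2 in WT (edgeR log2 difference -0.36, adjusted p = 0.799). The list's median was 0.02 in TRKC+/- and 0.05 in AdNTF3-Tg, and 26 of 44 genes (59.1%) were higher in WT_2. Against WT_2 alone and WT_1 alone the medians were 0.007 and 0.06 in TRKC+/- and -0.02 and 0.11 in AdNTF3-Tg. The count past 0.5, which was 1 against both WT libraries in each mutant with *Egr4* (at most 8 reads) in TRKC+/-, was 4 and 3 in TRKC+/- and 3 and 7 in AdNTF3-Tg against the same single controls. The share of all genes past 0.5 against each single control was not counted.

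Genes that follow the early wave did not pass the test either. Of 17 later activity-response genes, 11 were tested and 0 were called in TRKC+/- and 0 in AdNTF3-Tg, with 0 at an unadjusted p under 0.05 in either. The highest were *Gal*, the neuropeptide galanin, with a mean of 871 FPKM, and *Scg2*, a granin of dense core vesicles, with 659 FPKM. *Scg2* lay between 644 and 672 FPKM in the 4 libraries, and *Bdnf* had at most 7 reads in any library. The medians over the 15 listed in all libraries were -0.09 in TRKC+/- and 0.02 in AdNTF3-Tg. Against WT_2 alone and WT_1 alone they were -0.18 and -0.02 in TRKC+/- and 0.04 and 0.05 in AdNTF3-Tg.

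The machinery upstream of the immediate early genes was measured at levels from under 1 to over 400 FPKM. Of 27 genes for SRF, CREB, MEF2 and their kinases and coactivators, 26 were tested, 0 were called in either mutant, and 0 in TRKC+/- and 1 in AdNTF3-Tg had an unadjusted p under 0.05 (*Crebbp*, a CREB coactivator, at 5.08 FPKM against 3.64 and 3.69 in WT). *Mapk3*, the kinase ERK1, was at 455 to 474 FPKM. *Srf* itself was at 6.78, 7.04, 7.29 and 7.55 FPKM in WT_1, WT_2, TRKC+/- and AdNTF3-Tg. Medians were 0.02 in TRKC+/- and 0.06 in AdNTF3-Tg. Against WT_2 alone and WT_1 alone they were -0.02 and 0.01 in TRKC+/- and 0.07 and 0.03 in AdNTF3-Tg.

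Partners and cofactors of the encoded proteins were not called either, with 0 of 13 tested AP-1 partners and 0 of 8 tested cofactors in each mutant. At an unadjusted p under 0.05, edgeR gave 1 partner in TRKC+/- (*Jund*), 1 in AdNTF3-Tg (*Batf2*, with 12 reads against 1 and 4 in WT) and 0 cofactors in either. *Atf4*, the most abundant of the AP-1 partners, was at 231 to 254 FPKM. *Nab1*, a corepressor of EGR proteins, was at 16.9 to 17.7 FPKM, and *Rxrb*, a retinoid receptor of the family that pairs with NR4A receptors, at 15.3 to 17.4 FPKM. Medians in TRKC+/- and AdNTF3-Tg were -0.002 and 0.02 for the partners and 0.02 and -0.05 for the cofactors. For the partners they were -0.08 and -0.09 against WT_2 alone and 0.19 and 0.16 against WT_1 alone, so their sign turned with the control. For the cofactors they were 0.04 and -0.02 against WT_2 alone and 0.03 and -0.10 against WT_1 alone.

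Heat shock genes, which rise with handling of tissue as immediate early genes can, gave no call. Of 11, 0 were called in either mutant, with 1 (*Hspa1b*) and 0 at an unadjusted p under 0.05. Their summed FPKM was 3205 in WT_1, 3273 in WT_2, 3245 in TRKC+/- and 3271 in AdNTF3-Tg, *Hspa8* lay between 2029 and 2066 FPKM, and the inducible *Hspa1a* between 6.86 and 9.21 FPKM. DESeq2 called 0 genes, with 0 at an unadjusted p under 0.05, in each of the lists of later, upstream, partner, cofactor and heat shock genes in both mutants. The median of the heat shock genes was 0.07 in both mutants (0.04 and 0.02 in TRKC+/- and AdNTF3-Tg against WT_2 alone, 0.08 and 0.07 against WT_1 alone), and -0.01 for WT_2 against WT_1.

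Markers of other cell types that express immediate early genes were checked as sums over each list, in the order WT_1, WT_2, TRKC+/- and AdNTF3-Tg. Macrophage markers were at 143, 121, 127 and 104 FPKM, fibroblast markers at 324, 248, 301 and 280, endothelial markers at 43.8, 40.5, 44.4 and 38.3, smooth muscle and pericyte markers at 115, 91.3, 104 and 90.2, and myelin markers at 558, 544, 575 and 540. For 6 sensory neuron markers, of which *Avil* and *Isl1* are also made by sympathetic neurons, the sums were 258, 256, 254 and 269 FPKM. All 6 were above both WT libraries in AdNTF3-Tg, against 33.7% of all genes, with a median log2 difference of 0.58. In TRKC+/- 4 were below both and 2 above both, against 30.8% and 31.9% of all genes, with a median of -0.21. *Calca*, a neuropeptide gene of pain fibres, was at 4.18, 3.13, 2.75 and 6.19 FPKM in the same order. *Scn10a*, a sodium channel gene of those fibres, was at 0.49, 0.44, 0.18 and 0.70 FPKM. *Trpv1* had only 10 reads in AdNTF3-Tg against 7 and 3 in WT, and *Prdm12* 9 against 4 and 6. The abundant *Avil* was at 207 FPKM in AdNTF3-Tg against 201 and 200 in WT, and *Isl1* at 53.77 against 51.85 and 51.56. edgeR called 0 of the 5 tested in either mutant, with 1 in TRKC+/- and 0 in AdNTF3-Tg at an unadjusted p under 0.05, and DESeq2 called 0. Brown adipocyte markers were at 472, 401, 291 and 333 FPKM, with *Ucp1*, the uncoupling protein of brown fat, at 47.3 and 48.1 FPKM in WT, 7.80 in TRKC+/- and 37.8 in AdNTF3-Tg. *Ucp1* was 1 of the 2 genes that edgeR called in TRKC+/- (log2 difference -2.61, SE 0.15, adjusted p = 0.00111). The part of these tissues in the levels of the immediate early genes was not tested.

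The genes whose pattern over the 4 libraries was most like that of *Fos* were not immediate early genes. Likeness was the root mean square difference between log2 profiles centred on their mean, over 12751 other genes that averaged 1 FPKM or more. The 5 nearest were *Zfp654* (0.017), *Npy4r* (0.022), *Sh3bgrl* (0.037), *Kbtbd3* (0.045) and *Slc19a2* (0.047). *Zfp654* was at 2.09 and 3.31 FPKM in WT_1 and WT_2, 2.63 in TRKC+/- and 3.31 in AdNTF3-Tg. Among the immediate early genes *Fosl2* ranked nearest to *Fos*, at place 152, then *Nr4a1* at 662 and *Fosb* at 1309, while *Npas4* ranked 10387 and *Arc* 11597. With 4 libraries, such likeness is a description of these pools.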

How the data were processed

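RNA from SG of pooled mice was enriched with oligo(dT) and sequenced on a HiSeq 2000; the study's methods name SOAPnuke, HISAT2 and mm9, while the submitters' processing notes name RSEM and mm10. The authors deposited, per Entrez gene, an expected count of reads, not normalized, and an FPKM value scaled to gene length and library depth (RPKM in the methods). A strand setting was not given in the sources used here, so overlapping antisense reads cannot be told apart. Symbols were found for 17619 of 17667 identifiers.

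Expected counts were rounded and tested in edgeR 4.0.16 (R 4.3.3, glmQLFit and glmQLFTest, TMM, filterByExpr), each mutant against both WT libraries, with adjusted p under 0.05 as the threshold; DESeq2 1.42.0 was an alternative. Tests were checked on simulated counts. Ratios used log2(FPKM + 0.1) and the study's cutoff of 0.5. Intervals of ratios are exact 95% Clopper-Pearson intervals, covering counting error only, without a minimum number of reads. Precision is set by depths of 8665955 to 8894985 reads. The members and all gene lists were chosen with earlier results of these data known. All 10 genes are named. Of the rapid list, the 8 with the highest mean FPKM are named, with those called or beyond both WT libraries at a mean of at least 1 FPKM; of other lists, the 2 highest and any called. A gene that this rule names and 1 sensory neuron marker are not reported here. Genes such as *Per1*, *Crebbp*, *Bdnf*, *Srf*, *Acta1*, *Calca*, *Scn10a* and *Hspa1a* were named after their values were seen.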

Additional observations from a re-analysis of the deposited data

Results flagged for a closer look

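*Npas4* was singled out because the mutant libraries lay on opposite sides of both WT libraries: TRKC+/- above both and AdNTF3-Tg below both. AdNTF3-Tg minus TRKC+/- was -0.708 on the log2(FPKM + 0.1) scale, with 101 reads in TRKC+/- and 60 in AdNTF3-Tg beside 62 and 81 in WT. edgeR's test of that difference gave -0.73 (SE 0.32, adjusted p = 0.925), so it did not pass. There was 1 library per mutant, and the comparison was chosen after the values were seen. No other gene of the 10 lay above both WT libraries in 1 mutant and below both in the other. The share of all genes with that pattern was not counted. Among the other rapid response genes it was also seen in *Nr4a3*, *Btg2*, *Zfp36*, *Myc*, *Gadd45b*, *Csrnp1*, *Amigo3* and *Gem*, so it was not particular to *Npas4*.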

How the results depend on the processing

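The count of called genes stayed at 0 of 10 in both mutants with DESeq2's size factors in edgeR, with no filter on low counts, with edgeR's legacy quasi-likelihood fit and with DESeq2's Wald test. Over all genes, the 2 calls in TRKC+/- became 0 without the filter and 1 in the legacy fit, and the 0 calls in AdNTF3-Tg became 1 with DESeq2's size factors; *Nr4a1* in AdNTF3-Tg had an unadjusted p under 0.05 with TMM and with DESeq2's size factors in edgeR, but not without the filter, in the legacy fit or with DESeq2's Wald test. Leaving out a WT library left the test with no residual degrees of freedom, so no count was made. The count beyond the WT libraries by 0.5 ranged from 0 to 2 in TRKC+/- and from 1 to 2 in AdNTF3-Tg when 1 WT library was left out. Without WT_2 the genes were *Fosb* and *Npas4* in TRKC+/- and *Fos* and *Fosb* in AdNTF3-Tg, and without WT_1 *Junb* in AdNTF3-Tg. The share of all genes past 0.5 against a single WT library was not counted, so these counts have no background beside them. The count of 4 genes past 0.5 between the WT libraries became 1 at a cutoff of 1, which was *Fosb* with a difference of exactly 1.00, and 3 with a pseudocount of 1. Medians over the 10 genes ranged from -0.19 to 0.10 in TRKC+/- and from -0.08 to -0.02 in AdNTF3-Tg when 1 WT library was left out; other scalings and pseudocounts kept their signs. No paired analysis was possible because the sample labels, from which alone groups were taken, do not link a WT library to a mutant library, and the table names that mention cohorts were not used. At 21 to 57 reads, *Fosb* and *Arc* had the widest intervals.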

Other observations

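*Homer1*, whose short form is a rapid response transcript, showed how the unit can decide a sign. It was at 1.41 and 2.19 FPKM in WT_1 and WT_2, 1.74 in TRKC+/- and 2.96 in AdNTF3-Tg, from 48, 74, 70 and 96 reads, but the gene length behind the FPKM value was 4582 bases in TRKC+/- and between 3740 and 3982 in the other libraries. The TRKC+/- difference from WT was -0.02 from FPKM and 0.17 by edgeR on counts, and the AdNTF3-Tg difference was 0.72 from FPKM and 0.65 by edgeR (adjusted p = 0.799). The gene was named after its values were seen, and the tables do not give its transcripts separately.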
